A study of Mus musculus with 9 samples.

Results

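The genes described here are signalling genes and markers of olfactory sensory neurons: Omp, S100a5, Gng13, Adcy3, Gnal, Cnga2, Cnga4 and Stoml3. The set is defined by gene symbol, and its members are all probe sets that the platform annotation gives 1 of these symbols and no other. Of the 8 genes, 5 were analysed here (Omp, S100a5, Gng13, Adcy3 and Cnga2), with 9 probe sets among 22626, and Gnal, Cnga4 and Stoml3 were not analysed here. RNA of the lateral nasal gland, a secretory gland in the wall of the nasal cavity, was hybridised to 9 single-colour Affymetrix arrays. The groups were Cyp2g1-null males on a mixed 129/Sv x C57BL/6 background (3 arrays), wild-type C57BL/6 males, called B6 (4 arrays), and wild-type 129/Sv males (2 arrays). Every animal was 2 to 3 months old, and each array held RNA pooled from the glands of 10 mice, so a value is that of a pool and differences between single mice are averaged out. The sources used here do not say how the Cyp2g1 allele was made, or that the pools came from separate litters, so p-values measure the spread between these pools.

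Odorants bind receptors on the cilia of olfactory sensory neurons and activate the G protein Golf, whose alpha subunit is Gnal and whose gamma subunit is Gng13. Golf activates the adenylyl cyclase Adcy3, and the cyclic AMP it makes opens a cation channel built from Cnga2, Cnga4 and Cngb1. Omp is the olfactory marker protein of mature neurons, and S100a5 is a calcium-binding protein of the same neurons. These neurons lie in the olfactory epithelium, a tissue next to the gland and not part of it, so these genes can serve as a measure of how much olfactory RNA a pool held. In a bulk sample, fewer neurons and less RNA per neuron cannot be told apart.

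The promoter windows of S100a5, Gng13, Adcy3 and Cnga2 are shown because the sensory neuron factors of the Ebf family are known to bind a palindrome whose centre reads CCCNNGGG. Each window holds 250 bases before to 50 bases after a gene's start, from RefSeq on the mouse build GRCm38.p6, plus strand. Capitals mark CCCNNGGG, which is its own reverse complement, so the search of the strand shown covers both strands. The S100a5 window is chr3:90608272-90608571, that of Gng13 chr17:25716922-25717221, that of Adcy3 chr12:4133147-4133446 and that of Cnga2 chrX:71991599-71991898.
S100a5: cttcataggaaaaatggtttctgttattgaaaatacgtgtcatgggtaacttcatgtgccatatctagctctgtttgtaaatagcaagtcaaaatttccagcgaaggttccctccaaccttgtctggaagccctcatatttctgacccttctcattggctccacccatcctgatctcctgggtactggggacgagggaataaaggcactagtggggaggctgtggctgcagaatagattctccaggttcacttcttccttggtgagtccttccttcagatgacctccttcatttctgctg
Gng13: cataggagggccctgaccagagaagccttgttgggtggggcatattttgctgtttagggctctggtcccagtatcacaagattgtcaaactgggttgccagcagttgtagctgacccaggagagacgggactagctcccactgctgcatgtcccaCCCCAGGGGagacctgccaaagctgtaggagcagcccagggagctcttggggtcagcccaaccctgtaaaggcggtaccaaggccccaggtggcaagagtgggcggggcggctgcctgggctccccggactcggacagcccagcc
Adcy3: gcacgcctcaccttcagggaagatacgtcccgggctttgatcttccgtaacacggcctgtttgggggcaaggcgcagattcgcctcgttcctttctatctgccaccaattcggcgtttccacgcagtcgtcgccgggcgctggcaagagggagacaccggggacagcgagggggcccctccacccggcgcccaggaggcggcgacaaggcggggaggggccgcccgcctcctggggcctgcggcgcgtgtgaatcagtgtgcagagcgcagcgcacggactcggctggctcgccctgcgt
Cnga2: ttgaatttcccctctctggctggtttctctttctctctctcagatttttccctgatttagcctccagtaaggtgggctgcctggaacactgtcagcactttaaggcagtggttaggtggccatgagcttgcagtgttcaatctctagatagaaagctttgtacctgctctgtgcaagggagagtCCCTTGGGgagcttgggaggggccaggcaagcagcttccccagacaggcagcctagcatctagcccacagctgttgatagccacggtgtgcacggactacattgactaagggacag

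The motif lay 66 to 59 bases before the start in Cnga2, and Gng13 had 2 overlapping matches that span 95 to 87 bases before it. The S100a5 window and both Adcy3 windows held no match, nor did the other Gng13 window. Of all 32851 promoter windows of the same length, 13.7% held CCCNNGGG, against 3 of the 8 windows found for 6 members, those of Cnga2, Cnga4 and Gng13. TAATTA, the core letters bound by homeodomain factors such as Lhx2, was in 0 of these 8 windows and in 5.29% of all windows. With no TAATTA in these windows, no overlap between the motifs arose, and a match is a run of letters only.

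The arrays held a gland. Obp1a, an odorant-binding protein secreted by nasal glands, had signals between 112206.1 and 140712.5 in the null arrays, 134209.2 and 150146.2 in B6 and 120391 and 138652.9 in 129/Sv. Of 10 gland secretion genes, 9 had a probe set and 8 passed the filter on dim signals, which kept probe sets brighter than the array median on 2 arrays or more. The signal is the MAS5 intensity on a linear scale. Array medians lay between 518.6 and 550.0, and no detection calls were used, so signals below these medians are called dim here. The ratio of 3-prime to 5-prime signal ran from 2.59 to 2.9 for beta-actin and from 0.97 to 1.19 for Gapdh. Neither ratio followed the mean of the members over the 9 arrays (r = -0.21 and 0.28, rho = -0.34 and 0.25, exact permutation p = 0.582 and 0.537 for r and 0.365 and 0.512 for rho, adjusted p = 0.582 for both r and 0.769 for both rho over 3 relations, the other being the array median). Without the 2 arrays farthest from the median ratio, r was -0.13 and 0.04.

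Omp is the defining marker of mature olfactory neurons. Its brighter probe set (1422200_at, chromosome 7) had signals of 656.1, 814.4 and 1869.7 in the null arrays 1 to 3, of 3323.4, 702.6, 1158.5 and 1514.0 in B6 arrays 1 to 4, and of 607.2 and 814.6 in 129/Sv arrays 1 and 2. The groups overlapped: null array 3 lay above 3 of the 4 B6 arrays, and B6 array 2 lay below 129/Sv array 2. Group means (± SD) were 1113 ± 659.7 for the 3 null arrays, 1675 ± 1148 for the 4 B6 arrays and 710.9 ± 146.7 for the 2 129/Sv arrays. The dimmer Omp probe set (1422199_at) spread further, with 48.7, 43.4 and 1440.3 in null arrays, 2920.3, 75.7, 760.0 and 1007.7 in B6, and 41.1 and 469.9 in 129/Sv. Its highest signal was 71.1 times its lowest, against 5.5 times for the brighter probe set, and both put B6 array 1 at the top and 129/Sv array 1 at the bottom. The probe sets correlated at r = 0.91 over the 9 arrays.

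S100a5 is a calcium-binding protein of the S100 family that is known from rodents as a marker of active olfactory neurons. Its probe set (1449927_at, chromosome 3) gave 454.6, 460.9 and 2198.2 in the null arrays, 2436.8, 669.9, 1518.2 and 2222.8 in B6, and 221.2 and 707.8 in 129/Sv. Null array 3 stood with B6 arrays 1 and 4, while null arrays 1 and 2 stood below every B6 array. Between 707.8 and 1518.2 no array had a value, with 4 arrays above this gap and 5 below it.

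Gng13, the gamma subunit of the olfactory G protein, is also known from taste cells. Its signals (1419414_at, chromosome 17) were 293.0, 40.3 and 609.8 in null arrays, 868.6, 77.5, 282.9 and 753.8 in B6, and 34.4 and 48.7 in 129/Sv. It exceeded the array median on 3 arrays, null array 3 and B6 arrays 1 and 4, and was dim on the other 6. Null array 1 had rank 4 for Gng13, while its ranks for the other members were 6 to 9.

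Adcy3 makes cyclic AMP in olfactory cilia and is also found in the primary cilia of other cells. Its brightest probe set (1436928_s_at, chromosome 12) had 484.8, 355.9 and 524.2 in null arrays, 1159.5, 650.6, 736.5 and 990.5 in B6, and 303.5 and 407.3 in 129/Sv. Every B6 array lay above every null and 129/Sv array, and this probe set passed the filter through the 4 B6 arrays alone. The other Adcy3 probe sets did not pass the filter. The brightest of these (1421960_at) had 204.1, 275.3 and 675.4 in null arrays, 517.5, 489.9, 371.5 and 461.1 in B6, and 317.7 and 440.7 in 129/Sv, with no separation of B6. The other two were dim on all 9 arrays, at 48.9 to 113.9 in null, 22.9 to 400.3 in B6 and 64.1 to 96.9 in 129/Sv for 1421959_s_at, and at 251.4 to 497.8 in null, 21.6 to 451.0 in B6 and 20.6 to 187.4 in 129/Sv for 1436929_x_at. Among 1436928_s_at, 1421960_at and 1421959_s_at, r lay between 0.47 and 0.58. Pairs that include 1436929_x_at had r between -0.21 and 0.12, so the Adcy3 probe sets did not all give a common pattern.

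Cnga2 forms the pore of the olfactory cyclic nucleotide-gated channel. Its signals (1422181_at, X chromosome) were 21.3, 37.9 and 185.0 in null arrays, 707.8, 177.3, 384.7 and 399.2 in B6, and 41.0 and 219.8 in 129/Sv. It exceeded the array median on B6 array 1 alone and did not pass the filter. The null arrays held the lowest pair of values, and null array 3 lay just above the lowest B6 array.

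**Figure D1:**
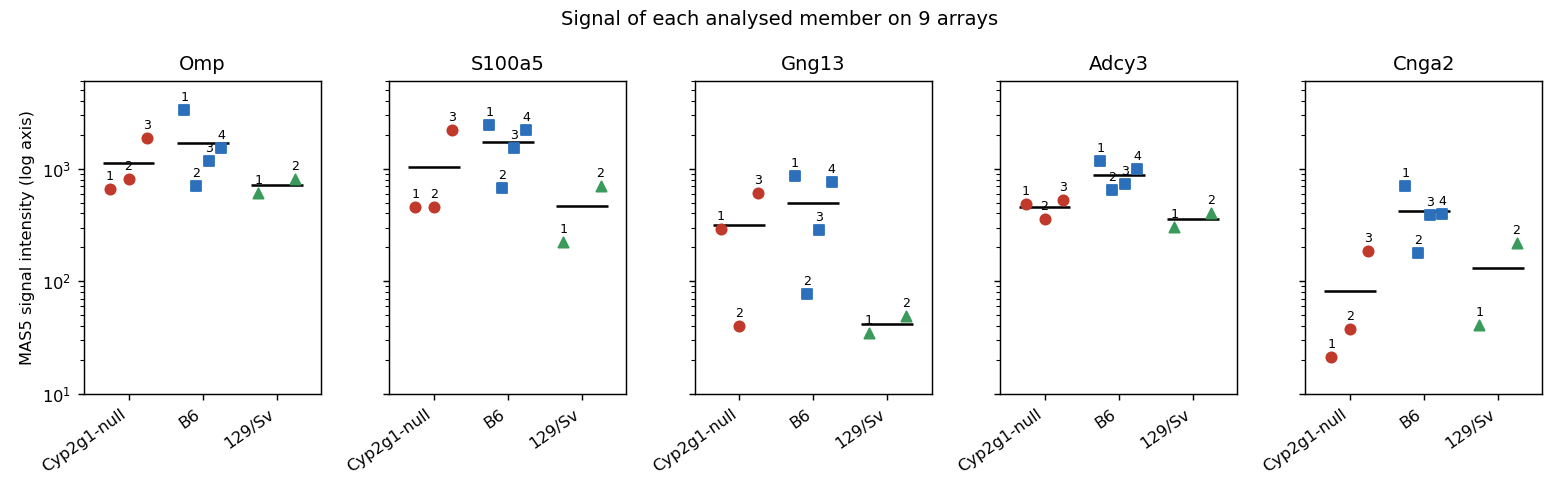
MAS5 signal intensity (log axis) of the brightest probe set of each analysed member, by group, with the array number beside each point and the group mean as a bar (null n = 3, B6 n = 4, 129/Sv n = 2). B6 array 1 is highest in all 5 panels, and null array 3 is the highest null array in each.

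The 5 members ordered the arrays much alike. With rank 1 as the highest signal, null array 3 had ranks 2 to 5, against rank 1 for all 5 members in B6 array 1, ranks 2 and 3 in B6 array 4 and ranks 3 to 5 in B6 array 3. At the other end, null array 2 had ranks 6 to 8, and 129/Sv array 1 had rank 9 for 4 members and rank 7 for Cnga2. Kendall's W of the ranks, which is 1 for identical orders, was 0.85. This value has no test because the members were chosen with earlier results known. As the mean deviation of the members from their 9-array means on the log2(signal + 16) scale, the null arrays stood at -0.70, -1.11 and 0.75, the B6 arrays at 1.64, -0.36, 0.59 and 1.14, and the 129/Sv arrays at -1.45 and -0.49. Pools of the same genotype therefore lay far apart, by 1.86 between null arrays 2 and 3 and by 2.00 between B6 arrays 1 and 2.

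**Figure D2:**
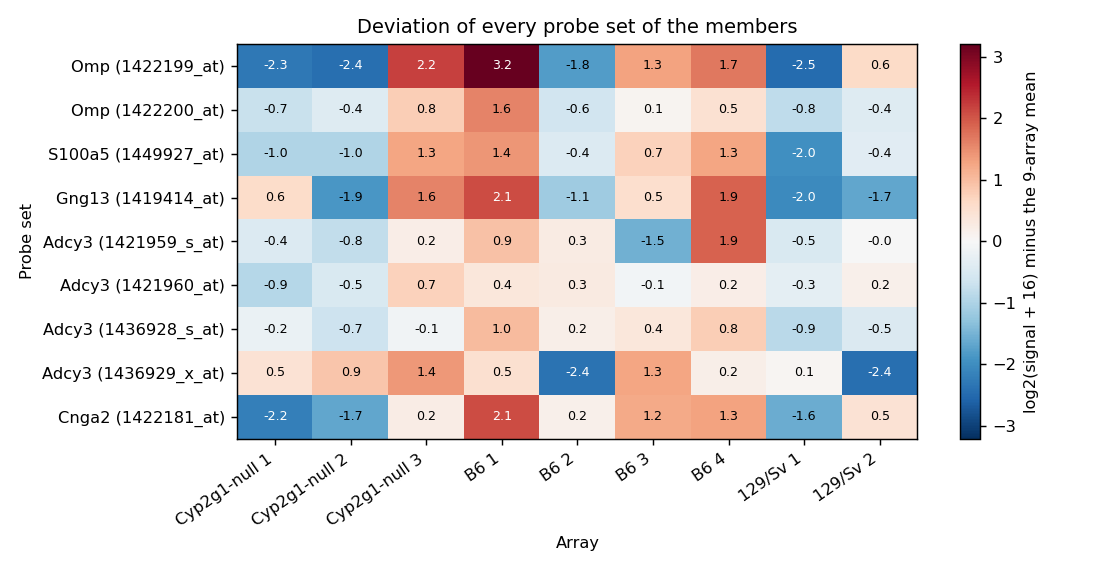
Deviation of all 9 probe sets of the members (rows) from their own 9-array mean on the log2(signal + 16) scale, with null arrays at the left, then B6 and 129/Sv (columns). Both Omp probe sets, S100a5 and Gng13 are high on null array 3 and B6 arrays 1 and 4, while the Adcy3 probe sets differ among themselves.

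Pairs of members correlated positively over the 9 arrays in all 10 cases, with a median Pearson r of 0.82 on the log2 scale. The closest pair was Omp and S100a5 (r = 0.89, rho = 0.97). Without the 2 arrays farthest from the Omp median, r for this pair was 0.94. The loosest pair was Gng13 and Cnga2 (r = 0.59, rho = 0.62). The other 8 pairs had r between 0.76 and 0.86 and rho between 0.73 and 0.9. Without the 2 arrays farthest from the median of the gene named first, these 8 had r between 0.67 and 0.79, and Gng13 with Cnga2 had 0.31. These values are descriptions with no test, since the members were chosen with earlier results known, and the pairs share members and arrays.

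The agreement was not a matter of group means alone. After each group's mean had been subtracted, the same pairs had r between 0.63 and 0.96, with a median of 0.79, and S100a5 with Cnga2 had the highest value. Over the 6 wild-type arrays r ran from 0.85 to 0.98. The share of a member's log2 spread that lay between the 3 groups was 26.4% for Omp, 43% for S100a5, 42.6% for Gng13, 59.8% for Cnga2 and 79.5% for Adcy3, where 2 of 8 degrees of freedom lie between groups. The value of Adcy3 is that of its brightest probe set, which passed the filter through B6 alone, and its other probe sets had 13.4%, 15.5% and 32.6%. The dimmer Omp probe set had 21.4%, so both Omp probe sets varied mostly within genotypes.

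Each member was also set against the mean of the other members. S100a5 had r = 0.96, Omp and Adcy3 0.89 each, Gng13 0.8 and Cnga2 0.78. Of the 7483 other genes tested, 0 reached the value of S100a5 with the same reference, 11 that of Omp, 10 that of Adcy3, 54 that of Gng13 and 87 that of Cnga2. These counts too are descriptions with no test, since the members were chosen with earlier results known. Among the Adcy3 probe sets that did not represent the gene, r was 0.67 for 1421960_at, 0.55 for 1421959_s_at and 0.31 for 1436929_x_at, a level that 22.4% of the other genes reached or passed.

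Between the groups, 0 of the 4 tested members passed an adjusted p of 0.05 in null against B6 (limma, Benjamini-Hochberg over 7487 genes), where 2.84% of all genes were called, 1.43% higher and 1.42% lower. All 4 log2 fold changes were negative, at -0.50 for Omp (SE 0.426, adjusted p = 0.614), -0.97 for S100a5 (SE 0.551, adjusted p = 0.431), -0.74 for Gng13 (SE 0.946, adjusted p = 0.757) and -0.92 for Adcy3 (SE 0.261, adjusted p = 0.0838). Among these 4 the unadjusted p (limma) was under 0.05 for Adcy3 alone, at 0.00356, as it was for 1125 of all 7487 genes. Adcy3 had entered the test through the B6 arrays alone, and with no filter its adjusted p was 0.15. Of all genes, 45.9% had a negative value in this contrast, and members that vary together are not independent counts. With an array left out, Omp ran from -0.95 (without null array 3) to -0.10 (without B6 array 1), S100a5 from -1.71 (without null array 3) to -0.59 (without null array 1) and Gng13 from -1.49 (without null array 3) to 0.24 (without null array 2). The dim Adcy3 probe set 1436929_x_at had a positive value, 1.01 (SE 0.796, adjusted p = 0.708 with all probe sets tested). Cnga2, tested in a fit with no filter on 12393 genes, had a log2 fold change of -2.40 (SE 0.692, unadjusted p = 0.00389, adjusted p = 0.135).

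Against 129/Sv, again 0 of the 4 tested members were called, where 2.2% of all genes were, 1.44% higher and 0.761% lower. The unadjusted p (limma) was under 0.05 for 0 of the 4 and for 906 of all 7487 genes. Here the log2 fold changes were positive, at 0.50 for Omp (SE 0.509, adjusted p = 0.774), 0.93 for S100a5 (SE 0.658, adjusted p = 0.65), 1.96 for Gng13 (SE 1.13, adjusted p = 0.553) and 0.34 for Adcy3 (SE 0.312, adjusted p = 0.743). In this contrast 51.4% of all genes had a positive value. The other Adcy3 probe sets had -0.10 for 1421959_s_at, -0.14 for 1421960_at and 2.09 for 1436929_x_at when all probe sets were tested. With an array left out, Omp ran from 0.05 (without null array 3) to 0.80 (without null array 1) and Gng13 from 1.21 (without null array 3) to 2.94 (without null array 2). S100a5 ran from 0.13 and Adcy3 from 0.14 without 129/Sv array 1 to 1.74 and 0.54 without 129/Sv array 2. Cnga2 had -0.65 with no filter (SE 0.827, adjusted p = 0.879). The mean of the null arrays thus lay between the strain means for 4 members and below both for Cnga2. Single null arrays did not all do so. For Omp, null array 1 (656.1) lay below the 129/Sv mean of 710.9, and null array 3 (1869.7) lay above the B6 mean of 1675. For Cnga2, null array 3 (185.0) lay above the 129/Sv mean of 130.4. Both comparisons use the same null arrays, so their values are not separate evidence.

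Against the unweighted mean of both strains, 0 of 4 members were called, where 1.28% of all genes were, 0.788% higher and 0.494% lower. The unadjusted p (limma) was under 0.05 for 0 of the 4 and for 932 of all 7487 genes. The log2 fold changes were -0.0015 for Omp (SE 0.402), -0.02 for S100a5 (SE 0.52), 0.61 for Gng13 (SE 0.894) and -0.29 for Adcy3 (SE 0.247), with adjusted p-values between 0.692 and 0.999. For Cnga2 with no filter the value was -1.52 (limma, SE 0.654, unadjusted p = 0.036, adjusted p = 0.467). The spread between pools of the same genotype thus leaves wide errors on S100a5 and Gng13.

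B6 exceeded 129/Sv in the mean of all 5 members, and 1 of the 4 tested, Adcy3, was called higher, where 2.91% of all genes were called higher, 2.52% lower and 5.44% in either direction. In this contrast 48.5% of all genes had a positive value. Adcy3 averaged 884.3 ± 233.4 over the 4 B6 arrays and 355.4 ± 73.4 over the 2 arrays of 129/Sv (± SD; log2 fold change 1.25, SE 0.296, adjusted p = 0.022). It had entered the test through the B6 arrays alone, and with no filter its adjusted p was 0.0442. The call was lost without 129/Sv array 1 (adjusted p = 0.205), 129/Sv array 2 (0.0669) or B6 array 4 (0.0612). Its other probe sets gave log2 fold changes of 0.28, 0.63 and 1.08 with adjusted p between 0.713 and 0.874 when all probe sets were tested. S100a5 had a log2 fold change of 1.90 (SE 0.625, adjusted p = 0.105), and passed without B6 array 2 (adjusted p = 0.0437) or null array 3 (0.0423). Gng13 had 2.70 (SE 1.07, adjusted p = 0.196), Omp 1.00 (SE 0.483, adjusted p = 0.297) and Cnga2 with no filter 1.75 (SE 0.785, adjusted p = 0.346). Unadjusted p (limma) was 0.000856 for Adcy3, 0.0088 for S100a5, 0.0248 for Gng13, 0.057 for Omp and, with no filter, 0.0428 for Cnga2. It was under 0.05 for 1348 of all 7487 genes and, with no filter, for 1692 of 12393. The members vary together, so these are not separate evidence.

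**Figure D3:**
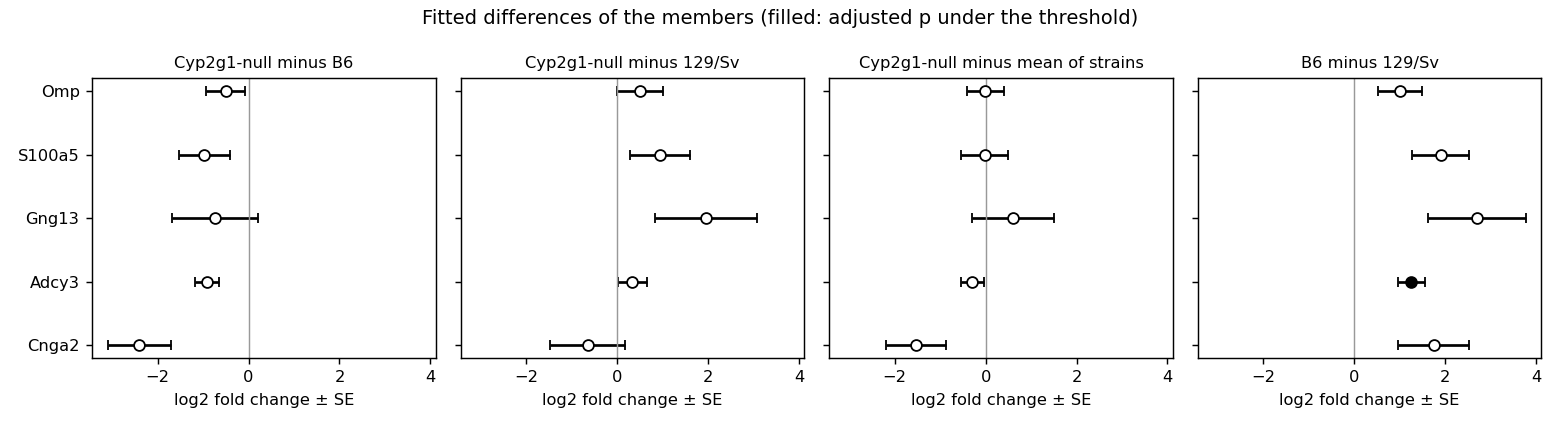
Log2 fold change of each analysed member ± its standard error in the 4 contrasts, on the log2(signal + 16) scale, from limma over all genes tested (Cnga2 from the fit with no filter). Filled points passed an adjusted p of 0.05, which holds for Adcy3 in B6 minus 129/Sv alone.

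The members also followed Cyp2g1, the targeted gene, in the wild-type pools. Cyp2g1 is a cytochrome P450 of the olfactory mucosa, where supporting (sustentacular) cells and Bowman's glands hold it rather than neurons. Its signals were 55.7, 140.6 and 201.1 in null arrays, 5916.8, 748.2, 2006.9 and 2799.4 in B6, and 207.5 and 981.2 in 129/Sv. The null and wild-type values did not overlap, though null array 3 was only just under 129/Sv array 1, and null against 129/Sv did not pass (log2 fold change -1.81, SE 0.739, adjusted p = 0.321). Whether this probe set lies in the altered sequence is not known here. Over the 6 wild-type arrays, Omp, S100a5 and Cnga2 ranked the arrays exactly as Cyp2g1 did (rho = 1.0). Pearson r was 0.99 for Cnga2 and 0.98 for S100a5, 0.93 for Adcy3, 0.92 for Gng13 and 0.92 for Omp. As deviations from the strain means, r ran from 0.83 for Gng13 to 0.98 for Cnga2, and without the 2 arrays farthest from the Cyp2g1 median it ran from 0.74 for Adcy3 to 1.0 for Omp, over only 4 arrays. Within a strain there were 4 and 2 arrays, too few for a correlation. That wild-type Cyp2g1 and olfactory markers move together was known from earlier results of these arrays when the members were chosen, so these correlations are descriptions with no test.

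**Figure D4:**
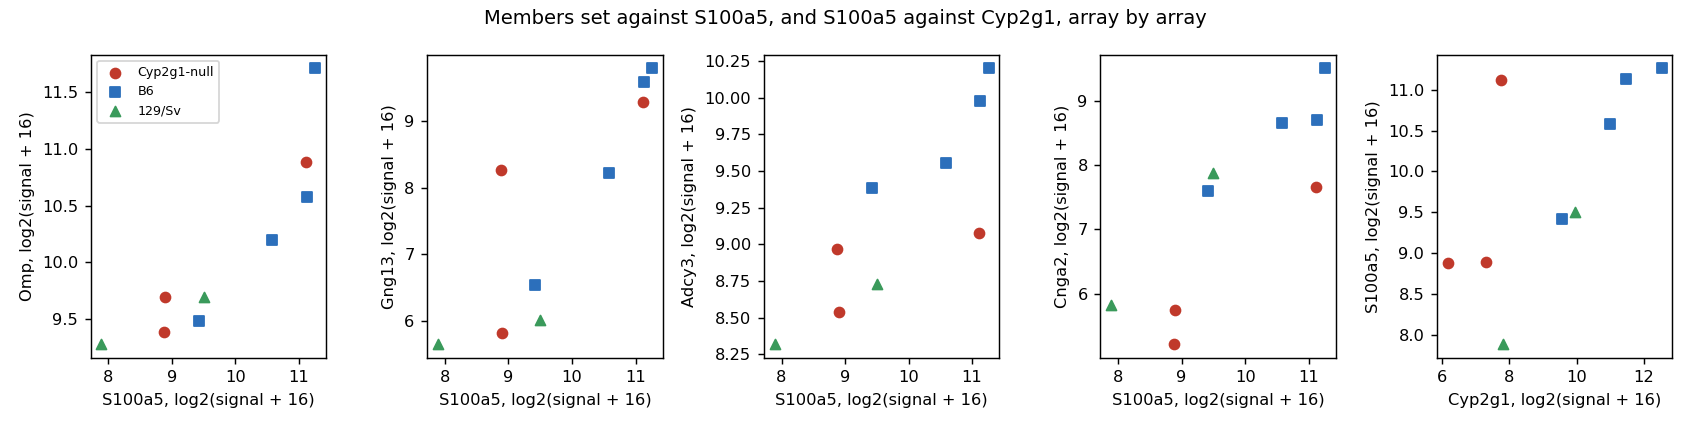
Log2(signal + 16) of S100a5 (horizontal) against Omp, Gng13, Adcy3 and Cnga2 (vertical), and of Cyp2g1 (horizontal) against S100a5 (vertical), 1 point an array. Null array 3 lies beside B6 arrays 1 and 4 in the panels of Omp and Gng13 and below them in those of Adcy3 and Cnga2, and in the last panel it lies left of every B6 array.

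Of 12 other genes of odour transduction and receptor export, 5 had a probe set and 2 were tested. Pde4a, a phosphodiesterase that breaks down cyclic AMP, had 1116.1, 1089.8 and 715.2 in null arrays, 1327.6, 1309.1, 1268.1 and 1258.2 in B6, and 1014.3 and 899.4 in 129/Sv. Every B6 array lay above every null and 129/Sv array, as for the brightest Adcy3 probe set, but its r with the mean of the members was 0.22 and it was not called (null against B6, log2 fold change -0.43, SE 0.167, adjusted p = 0.225; B6 against 129/Sv, 0.43, SE 0.189, adjusted p = 0.251). Gnb1, a G protein beta subunit present in most cells, had 2819.5, 2838.9 and 3142.9 in null arrays, 3250.7, 2907.8, 3067.9 and 3059.8 in B6, and 5556.8 and 6782.6 in 129/Sv. It was lower in null than in 129/Sv (log2 fold change -1.06, SE 0.123, adjusted p = 0.000281) and lower in B6 than in 129/Sv (-0.996, SE 0.116, adjusted p = 0.000123), which puts the strains in the opposite order to the members. In null against B6 it did not pass (-0.07, adjusted p = 0.809). Cngb1, another subunit of the channel, was dim on all 9 arrays, between 56.0 and 321.7 in null, 35.8 and 278.7 in B6 and 52.8 and 119.6 in 129/Sv, and its r with the mean of the members was -0.47.

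Of 13 transcription factors of olfactory neurons, 9 had a probe set, 3 were tested and 0 were called in any contrast. The tested ones, Atf5, Ldb1 and Dlx5, had r between 0.00 and 0.09 with the mean of the members. Among the 6 dim ones, 5 had positive r, and 4 that were picked out after their values were seen had r between 0.78 and 0.9. Neurod1, a factor of differentiating neurons, had 95.2, 80.6 and 168.8 in null arrays, 273.7, 129.4, 216.1 and 162.3 in B6, and 29.6 and 123.3 in 129/Sv (r = 0.9). Lhx2, a homeodomain factor needed for olfactory neurons to mature, had 112.5, 104.1 and 176.5 in null arrays, 634.0, 300.8, 144.4 and 329.3 in B6, and 16.2 and 24.5 in 129/Sv (r = 0.78). Ebf3 and Ebf2, which bind the palindrome shown above, had r = 0.81 and 0.78. These genes exceeded the array median on 0 or 1 arrays, so their levels are uncertain.

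Neuronal genes gave a mixed picture. Of 8 genes of immature olfactory neurons, 7 had a probe set and Dpysl3, a semaphorin signalling protein, was the 1 tested (r = 0.55, not called in any contrast). Dim members of that list included Stmn2, a microtubule regulator of growing axons (r = 0.83), and Gap43, a growth cone protein (r = -0.02). Of 11 general neuronal genes, 10 had a probe set and Vamp2, a vesicle protein, was the 1 tested (r = 0.14, 0 calls). The dim Uchl1, a neuronal ubiquitin hydrolase, had r = 0.85, and the neurofilament Nefm had r = -0.52. Stmn2, Gap43, Uchl1 and Nefm were picked after their values were seen. Of 7 olfactory axon adhesion and guidance genes 4 had a probe set and 3 were tested, with 0 calls and r between 0.27 and 0.59. Nrp1 and Nrp2, the semaphorin receptors among them, had r = 0.27 and 0.47.

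Relatives of the members outside the olfactory pathway gave a contrast within the same protein families. Of 28 such genes, 22 had a probe set and 12 were tested, with a median r of -0.07 against -0.01 over all other genes tested. Gnas, the alpha subunit of the general stimulatory G protein, had signals between 32599.4 and 37168.9 over the 9 arrays (r = -0.15). Adcy6 and Adcy9, adenylyl cyclases of many tissues, had r = -0.38 and -0.29. Gng10, another gamma subunit, was lower in null than in B6 (log2 fold change -0.43, SE 0.106, adjusted p = 0.0452), lower in null than in 129/Sv (-0.94, SE 0.127, adjusted p = 0.000969) and lower in B6 than in 129/Sv (-0.50, SE 0.12, adjusted p = 0.0241). S100a10, a relative of S100a5 that binds annexin, was higher in null than in 129/Sv (1.02, SE 0.149, adjusted p = 0.00173) and higher in B6 than in 129/Sv (0.54, SE 0.141, adjusted p = 0.0365). The exception was Stom, the stomatin gene to which Stoml3 is related, with r = 0.9. Stom had 564.9, 840.1 and 2080.2 in null arrays, 2377.3, 765.0, 1617.7 and 1685.8 in B6, and 742.5 and 1106.5 in 129/Sv, which is high on the same arrays as Omp, and it was not called in any contrast.

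Stom was also among the 10 genes most like the members. These were Gpm6a (r = 0.955), Col1a2 (0.945), Mindy3 (0.934), Sparc (0.93), Stmn3 (0.915), Lum (0.909), Gas8 (0.906), Stom (0.897), Coch (0.897) and Spsb3 (0.895), by Pearson r with the mean of the members over 9 arrays. Gpm6a is a neuronal membrane glycoprotein, and Stmn3 a neuronal stathmin. Gpm6a had 92.7, 75.3 and 302.8 in null arrays, 591.6, 278.6, 315.3 and 561.8 in B6, and 59.8 and 144.3 in 129/Sv. Col1a2, a type I collagen chain, Sparc, a matrix protein, and Lum, the collagen-binding proteoglycan lumican, are genes of connective tissue. Col1a2 had 21539.6, 21327.5 and 28353.4 in null arrays, 32647.4, 25607.1, 32438.7 and 35200.5 in B6, and 20801.5 and 23964.3 in 129/Sv, a much narrower range than that of the members. None of the 10 was called in any contrast. Among 7483 genes, 7 had r above 0.9 and 8 had r below -0.9. How many such values the search alone would give was not tested, so likeness in a single gene carries little weight.

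**Figure D5:**
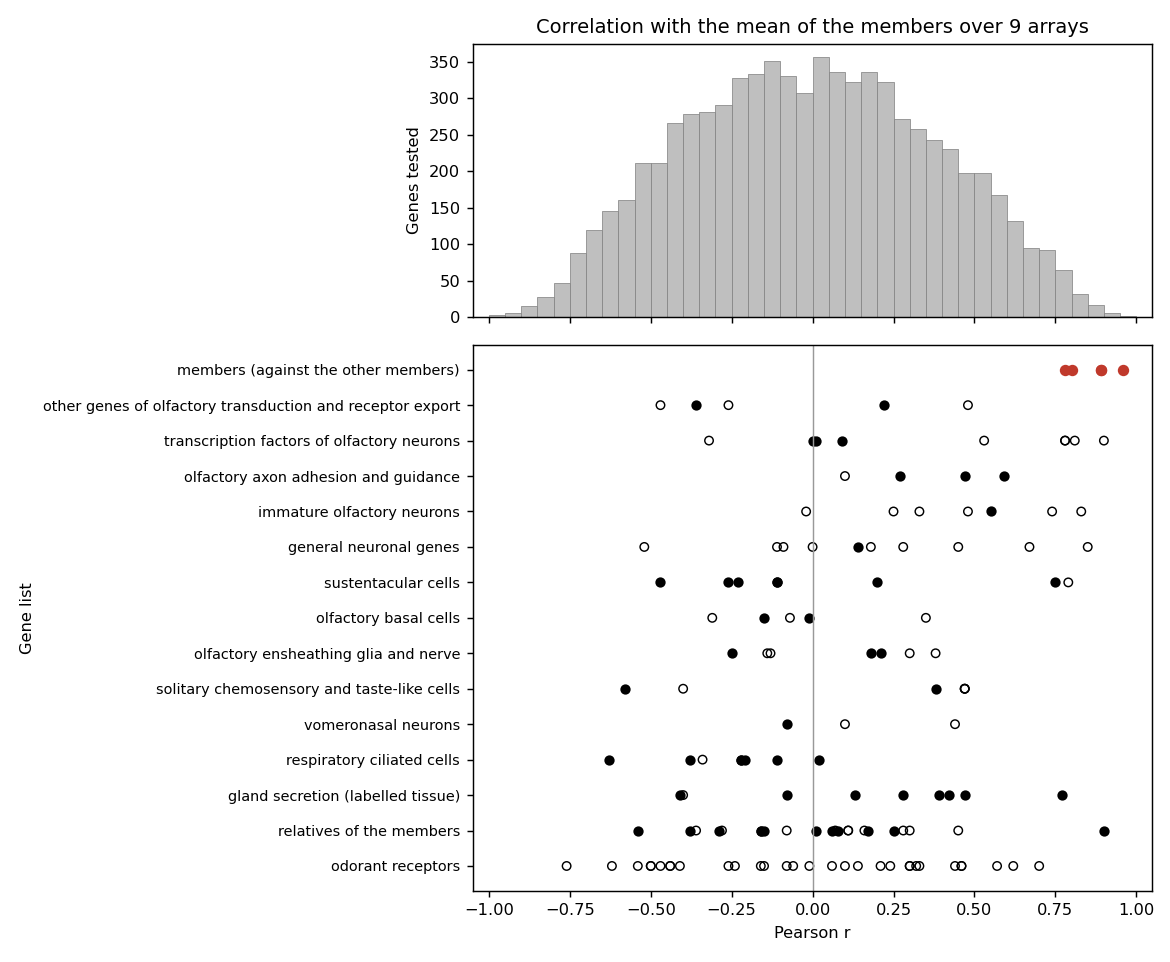
Above, number of the other genes tested by their Pearson r with the mean of the members over 9 arrays. Below, r of each list gene with a probe set (filled if it passed the filter, open if not) and, in the top row, r of each member with the mean of the other members. The 5 members lie between 0.78 and 0.96, and the lists spread over both sides of 0.

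Markers of other nasal cell types had correlations with the members on both sides of 0. Of 10 sustentacular cell genes, 8 had a probe set and 7 were tested, with r from -0.47 to 0.75 and a median of -0.11. The P450s on the list had the highest r, 0.75 for Cyp2g1 and 0.79 for the dim Cyp1a2, which was named after its values were seen. Cyp2g1 was the 1 called (null against B6, log2 fold change -4.07, SE 0.618, adjusted p = 0.00221). The summed signal of this list was 63922 to 71604 in null, 61906 to 77920 in B6 and 74899 to 78904 in 129/Sv, most of it from Cbr2, a carbonyl reductase, and Krt18, a keratin, both of which other epithelia express. The 7 tested genes of respiratory ciliated cells had r between -0.63 and 0.02. Of these 4 were higher in null than in B6, where 1.43% of all genes were called higher, and their median log2 fold change was 0.56 against 0.02 over all genes. Against 129/Sv 0 were called, where 1.44% of all genes were called higher, and the median was 0.46 against 0.01. Against the mean of both strains 3 were called higher, where 0.788% of all genes were. The summed signal of the ciliated cell list was 19886 to 21063 in null, 12485 to 15530 in B6 and 13906 to 16363 in 129/Sv. Dnah5, a dynein of motile cilia, had 2268.2, 2278.5 and 2174.4 in null arrays, 1125.7, 1433.2, 1494.2 and 1116.4 in B6 and 1751.8 and 1495.4 in 129/Sv (log2 fold change against B6 0.80, SE 0.138, adjusted p = 0.00504). The 3 null arrays, which spread widely for Omp, were close together for Dnah5. Cbr2, Krt18, Obp1a, Gnas, Adcy6, Adcy9, Stom as a relative, Dlx5, Pde4a and Cngb1 were named after their values were seen. No value was at 0 in any of these lists, and what part ciliated tissue has in the members' values was not tested.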

How the data were processed

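RNA from 9 pools of lateral nasal gland was measured on Affymetrix arrays. The deposited values are linear signal intensities from MAS5, the program that the submitters' processing notes name for how the authors made them; the sources used here give neither version nor scaling, and detection calls were not used. Of 22690 probe sets, 64 controls were left out, and the platform annotation gave 1 symbol to 20380, several to 691 and none to 1555. Values were taken as log2(signal + 16), probe sets above the array median on at least 2 arrays were kept, and the probe set with the highest mean stood for its gene. limma 3.58.1 (R 4.3.3; lmFit, eBayes with trend) was fitted to all 9 arrays with Benjamini-Hochberg adjustment over 7487 genes. Correlations with RNA quality used exact permutation tests over all pairings; those among the members and with Cyp2g1 are descriptions. The script was tested on simulated data.

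The members and lists were chosen with earlier results of these data known. Named are the members, Cyp2g1, up to 3 called genes of each list by adjusted p or, with no call, the 2 brightest, and the 10 genes most correlated with the mean of the members; others are said to be picked after their values were seen. Alternatives were quantile or median scaling, pseudocounts of 1 and 64, other filters, probe sets tested singly, no trend, only the compared groups, the replicate block and each array left out. The labels name no batch. The number of arrays limits the precision.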

Additional observations from a re-analysis of the deposited data

How the results depend on the processing

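The 4 tested members stayed without a call in the 3 comparisons of null arrays under every alternative that gave a value; fitting the compared groups alone gives none for null against the mean of both strains. In B6 against 129/Sv the count of called members, 1 as reported, was 0 with the filter at the 75th percentile, which removes Adcy3 and Gng13, and 0 with the replicate number as a block. It ran from 0 to 2 when an array was left out. Adcy3 kept its call in 14 of 18 alternatives, with adjusted p from 0.0182 to 0.205. Labels give the groups the same replicate numbers. Deviations of same-numbered arrays correlated between -0.087 and 0.104, and those of differently numbered arrays of different groups between -0.126 and 0.126. With only 2 arrays, the 129/Sv deviations mirror each other, so each of their correlations recurs with the opposite sign under the other number. Between B6 and null arrays, the same-numbered values were 0.011, -0.009 and -0.002, and the others lay between -0.057 and 0.076. These ranges cannot decide whether pools were paired by number, and whether same-numbered pools were handled together is not known here. With the replicate block, Adcy3 had a log2 fold change of 1.17 (limma, adjusted p = 0.0958). When an array was left out, the values on the log2 scale for null arrays against both strains' mean ran from -0.45 to 0.30 for Omp, -0.76 to 0.39 for S100a5 and -0.14 to 1.59 for Gng13, and that of Gng13 in null against B6 from -1.49 to 0.24. The median correlation of the members ran from 0.77 to 0.85 when an array was left out. Over all genes, eBayes without trend called 115, 93 and 35 genes for null against B6, 129/Sv and the mean of both, in place of 213, 165 and 96, and the cause was not tested. With an array left out, null against B6 gave 101 (without null array 3) to 472 (without B6 array 1), null against 129/Sv 65 (without 129/Sv array 2) to 202 (without B6 array 1) and null against the mean 30 (without null array 1) to 196 (without B6 array 1). B6 against 129/Sv gave 201 (without 129/Sv array 1) to 559 (without B6 array 1), in place of 407. Dim signals limit Gng13, Cnga2 and most of the other olfactory genes.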

Other observations

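Odorant receptors, the proteins that detect odours, were represented by 31 genes with a probe set of their own. None of them passed the filter on dim signals, and their r with the mean of the members had a median of -0.01, with 15 of 31 positive. Olfr15, the brightest and the 1 receptor that exceeded the array median on an array, had signals of 141.9, 192.6 and 442.3 in null arrays, 566.1, 219.9, 311.0 and 416.6 in B6, and 373.5 and 413.8 in 129/Sv (r = 0.62). Olfr71, the next brightest, had r = 0.06. Of 7 genes of solitary chemosensory and taste-like cells, which also use Gng13, 6 had a probe set and 2 were tested. Itpr3, the calcium release channel among them, was lower in B6 than in 129/Sv (log2 fold change -0.58, SE 0.112, adjusted p = 0.00689, limma), opposite to Gng13. Its r with the mean of the members was -0.58, but 4 of the 6 genes had positive r, with a median of 0.43. Plcb2, the other tested gene, had r = 0.38 and was not called in any contrast. The defining channel Trpm5 was dim on all 9 arrays (r = -0.4). Plcb2 and Trpm5 were named after their values were seen. Gnai2, the 1 tested gene of vomeronasal neurons, had r = -0.08. The basal cell keratins Krt5 and Krt14 had r = -0.01 and -0.15. Of the glial genes, Sox10, which glands express as well, had r = -0.25 and Mbp, a myelin protein, r = 0.21, and 0 genes of these last 3 lists were called. Of the gland's own products, Scgb1b27, Scgb2b27 and Lcn3 had r = 0.39, 0.28 and 0.47. The list's tested genes ran from -0.41 for Car6, a secreted carbonic anhydrase, to 0.77 for Bpifa1, a secreted airway protein, both named after their values were seen. Bpifa1 had 5428.3, 15787.4 and 12816.6 in null arrays, 29108.2, 7654.6, 29161.3 and 49253.4 in B6, and 2939.7 and 17671.7 in 129/Sv, and was not called in any contrast.

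The gene with the strongest relation of either sign ran opposite to the members. Ide, the insulin-degrading enzyme, had r = -0.987 with their mean, on signals of 6093.7, 6196.9 and 5549.3 in null arrays, 5099.8, 5812.7, 5543.0 and 5312.8 in B6, and 6217.2 and 5984.2 in 129/Sv. Blvrb, a biliverdin reductase, had r = -0.95 and signals of 1119.5, 1308.7 and 891.1 in null arrays, 526.4, 875.4, 791.8 and 651.1 in B6, and 1515.4 and 1252.4 in 129/Sv. Both were picked after their values were seen, from a search of 7483 genes.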
